A study of Mus musculus with 2 samples.

Results

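The 10 genes described here encode the machinery by which cells show peptides from their own proteins on MHC class I molecules: the heavy chains H2-K1 and H2-D1, the non-classical heavy chain H2-T23, the shared light chain B2m, the peptide transporter subunits Tap1 and Tap2, tapasin (Tapbp), the immunoproteasome subunits Psmb8 and Psmb9, and the transactivator Nlrc5. They were taken by name from the 32285 genes of the count tables, and all 10 were found. The study compared dissociated brain tissue of APP-KI mice aged 6 months, which carry a mutated App gene in place of the normal one as a model of Alzheimer's disease, in 2 single-cell libraries (10x Genomics 3′ v3.1 chemistry). Fit2-WT denotes the APP-KI library with intact Fit2, and Fit2-Mut the APP-KI library in which Fit2, an endoplasmic reticulum protein of lipid droplet formation encoded by Fitm2, is disrupted in macrophages. Both groups carry the APP-KI allele, so no library without it enters the comparison. The Cre driver, the deleted part of the gene and the number of pooled animals are not given in the sources used here.

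Class I molecules load peptides that the proteasome cuts in the cytosol and that the TAP transporter carries into the endoplasmic reticulum, where tapasin holds empty heavy chains close to TAP until a peptide binds. The loaded complex of heavy chain and beta-2-microglobulin travels to the cell surface, where CD8 T cells read it, while NK cells respond to its loss. Interferon raises the whole set, in part through IRF1, and NLRC5 drives the heavy chain and light chain promoters together with RFX, CREB and NF-Y factors. In the brain, class I is known to be low in neurons, astrocytes and oligodendrocytes and high in microglia, endothelium and infiltrating lymphocytes.

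Of the 10 genes, 8 lie in the MHC region of chromosome 17 (GENCODE M21, GRCm38). Tapbp spans 33915899 to 33929292 on the plus strand, H2-K1 33996017 to 34000347 on the minus strand, and Psmb9, Tap1, Psmb8 and Tap2 follow each other between 34181987 and 34216321. H2-D1 spans 35262730 to 35267499 on the plus strand and H2-T23 spans 36029773 to 36032855 on the minus strand. B2m is on chromosome 2 (122147686 to 122153083, plus strand) and Nlrc5 on chromosome 8 (94434356 to 94527272, plus strand). Heavy chain genes have close relatives, and a 3′ library reads only their transcript ends. Of all 60-base words in the last 400 bases of the annotated transcripts, 8.46% for H2-K1, 16.6% for H2-D1 and 11.4% for H2-T23 also occurred in transcripts of other genes, against 0% for B2m, Psmb8 and Psmb9. How reads over such words were counted is not given in the sources used here, so the heavy chain values are less certain than those of B2m and the immunoproteasome genes.

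RefSeq start sites (GRCm38.p6) were matched for 8 of the 10 genes. Shown are the 250 bases before the start sites of H2-K1 (chr17:34000348-34000597, minus strand), B2m (chr2:122147437-122147686, plus strand), H2-T23 (chr17:36032702-36032951, minus strand) and Tap1 (chr17:34187306-34187555, plus strand), because the heavy and light chain genes and Tap1 followed each other across cell types and because the Tap1 stretch also serves Psmb9. Capitals mark matches on either strand to the 8-letter core AANNGAAA of interferon regulatory factor sites, a motif chosen with the sequences in view.

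H2-K1: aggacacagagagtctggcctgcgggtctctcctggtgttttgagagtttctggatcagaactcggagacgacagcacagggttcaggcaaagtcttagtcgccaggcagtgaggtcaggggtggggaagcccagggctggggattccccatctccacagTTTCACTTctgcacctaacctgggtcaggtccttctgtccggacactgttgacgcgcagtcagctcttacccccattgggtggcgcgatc

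B2m: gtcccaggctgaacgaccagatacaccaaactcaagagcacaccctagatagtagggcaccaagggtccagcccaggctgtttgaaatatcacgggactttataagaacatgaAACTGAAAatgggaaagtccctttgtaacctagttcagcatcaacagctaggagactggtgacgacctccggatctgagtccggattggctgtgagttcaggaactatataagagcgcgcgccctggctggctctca

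H2-T23: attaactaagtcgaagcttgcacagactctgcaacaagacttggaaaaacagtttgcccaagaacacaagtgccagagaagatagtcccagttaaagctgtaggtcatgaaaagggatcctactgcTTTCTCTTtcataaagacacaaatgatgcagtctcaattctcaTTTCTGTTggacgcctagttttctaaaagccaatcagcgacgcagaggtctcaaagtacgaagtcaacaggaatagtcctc

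Tap1: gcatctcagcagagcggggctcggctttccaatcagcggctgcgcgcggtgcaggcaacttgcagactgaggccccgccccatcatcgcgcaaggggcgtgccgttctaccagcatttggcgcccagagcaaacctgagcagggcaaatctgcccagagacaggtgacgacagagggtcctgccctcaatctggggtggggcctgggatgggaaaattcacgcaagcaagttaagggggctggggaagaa

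The core was found in the 300-base windows (250 before to 50 after the start site) of 4 of the 8 genes, once each in H2-K1, H2-D1 and B2m and in 2 places in H2-T23, and in 23.9% of all 32544 distinct RefSeq promoter windows. It lay 82 bases before the H2-K1 start site, 142 before that of H2-D1 and 129 before that of B2m. The consensus of NF-kB, searched on both strands, was found in 3 of the 8 windows (H2-K1, H2-D1 and B2m) and in 8.49% of all windows. The Tap1 and Psmb9 start sites point away from each other, 226 bases apart, and their windows share 275 bases, in which these letters of the core were not found. A match is a description of the letters, not evidence of binding.

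The counts are UMIs, tags that mark single captured transcripts, and levels are given as CPM, the UMIs of a gene in a cell type scaled to a common total of 1000000 UMIs. The Fit2-WT library held 5209 cells (median 6817 UMIs) and the Fit2-Mut library 5824 cells (median 7376 UMIs), and 9 barcodes occurred in both. Cells were grouped into 29 clusters without using the 10 genes or the wider class I list below, and 15 types were named from their markers, 7 of them with at least 100 cells in each library. Each name carries "like" because it rests on markers alone. The cluster named border-associated macrophage-like (116 and 92 cells) also met the marker rules of microglia, monocytes and dendritic cells and was led by Plac8, so it is a mixture. In microglia-like cells Fitm2 itself was counted 17 times in the Fit2-WT library and once (1 UMI) in the Fit2-Mut library. With 1 library per genotype there is no replicate, so no p-value is given. All intervals are exact 95% intervals of counting error alone, take each UMI as independent, and understate the error of genes counted mostly in a few cells.

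The level of the class I genes was set above all by cell type. The 10 genes together took 8636 CPM in Fit2-WT and 9828 CPM in Fit2-Mut NK cell-like cells, 8462 and 8242 CPM in T cell-like cells, 5309 and 6214 CPM in microglia-like cells and 3451 and 3456 CPM in endothelial-like cells. Ependymal-like cells had 484 and 545 CPM, astrocyte-like cells 212 and 282 CPM, choroid plexus epithelium-like cells 169 and 195 CPM, and oligodendrocyte-like cells 167 and 257 CPM. NK cell-like and T cell-like cells therefore lay above microglia-like cells, and the 4 epithelial and macroglial types were all below the endothelial-like cells in both libraries. The mixed border-associated macrophage-like cluster, at 6913 and 6687 CPM, also lay above microglia-like cells in both libraries. B cell-like cells, at 4738 and 6560 CPM, did so only in Fit2-Mut, and neutrophil-like cells, at 4830 and 4443 CPM, in neither. The order of the 15 types was close to the same in both libraries, with Spearman's rho between 0.846 for Nlrc5 and 0.986 for H2-D1 and H2-T23, a description over 15 types that share libraries and depth. Microglia-like cells held 48.7% of the class I UMIs of all Fit2-WT cells and 50.8% of those of all Fit2-Mut cells. They numbered 550 and 577, fewer than the choroid plexus epithelium-like cells (1440 and 1494), which held 4.49% and 3.64%.

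**Figure D1:**
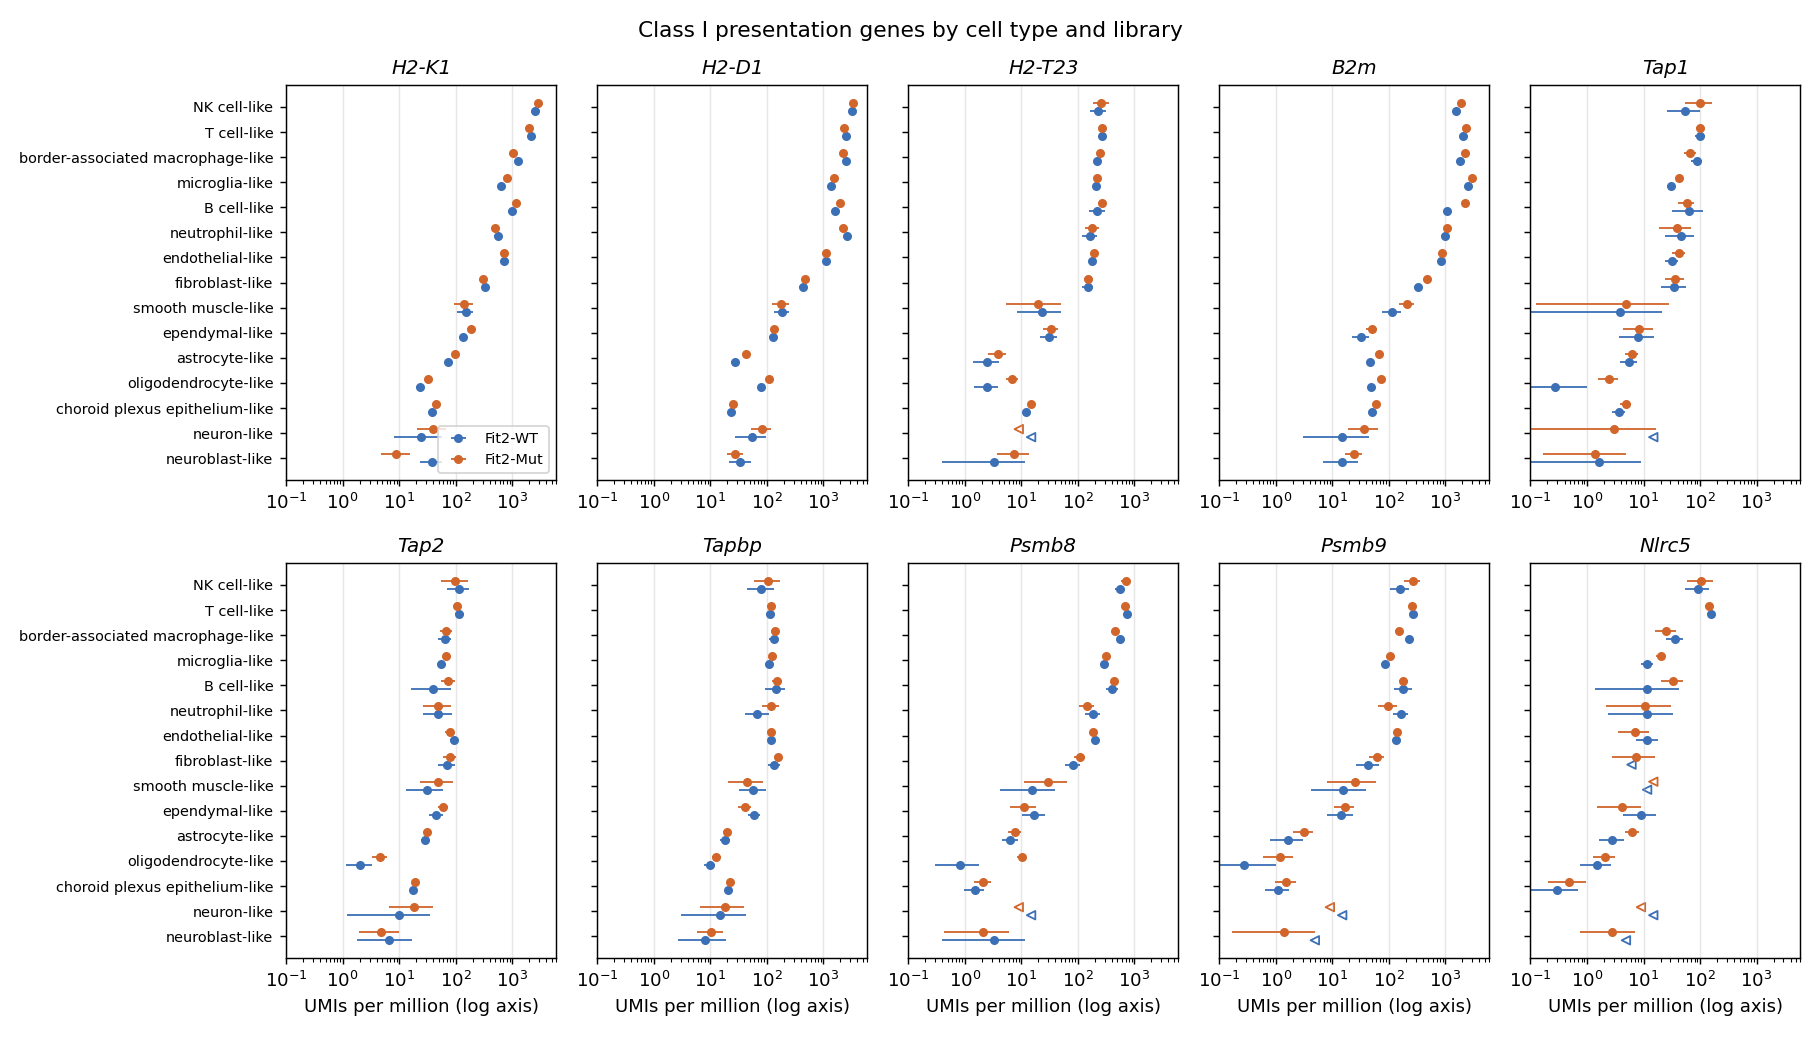
Level of each of the 10 genes (CPM, log axis) in 15 marker-defined cell types of the Fit2-WT (blue) and Fit2-Mut (orange) library. Bars are exact 95% Poisson intervals of counting error, cut at the axis edge, and open triangles mark the level of 3 UMIs where a gene had none. Types are ordered by the sum of the 10 genes, from NK cell-like at the top to neuroblast-like at the bottom.

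Among the chains that form the class I molecule, H2-K1 was highest in NK cell-like cells, with 2526 CPM in Fit2-WT and 2883 CPM in Fit2-Mut, followed by T cell-like cells with 2162 and 1986 CPM. The intervals of those neighbours did not overlap in either library. Microglia-like cells, with 640.2 and 823 CPM, and endothelial-like cells, with 707 and 721 CPM, changed places between the libraries. H2-D1 was likewise highest in NK cell-like cells, at 3267 and 3420 CPM, and H2-D1 in microglia-like cells was 1345 and 1548 CPM. B2m had another order. It was highest in microglia-like cells, with 2525 and 2946 CPM, ahead of T cell-like cells with 2025 and 2269 CPM, again without overlap of the intervals in either library. Microglia-like cells held 65.1% of all B2m UMIs in Fit2-WT cells and 63.5% in Fit2-Mut cells, against 33.9% and 39.3% of the H2-K1 UMIs. H2-T23, which presents peptides to receptors of NK cells, was within a narrow range in immune and endothelial types, at 269 and 270.1 CPM in T cell-like, 213 and 221 CPM in microglia-like and 179.6 and 193 CPM in endothelial-like cells.

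Of the peptide-supply genes, Tap1, Tap2, Psmb8 and Psmb9 were highest in T cell-like or NK cell-like cells in each library, whereas Tapbp was highest in B cell-like cells of Fit2-WT (145 CPM) and in fibroblast-like cells of Fit2-Mut (159.5 CPM). Psmb8 was 753 CPM in Fit2-WT and 685 CPM in Fit2-Mut T cell-like cells, 548 and 701 CPM in NK cell-like cells, 295 and 319.5 CPM in microglia-like cells and 205 and 185 CPM in endothelial-like cells. In choroid plexus epithelium-like cells Psmb8 was only 1.49 and 2.11 CPM. In neuron-like cells no Psmb8 UMI was counted among 201515 and 333042 UMIs, too few to place them below the choroid plexus epithelium-like cells. Tap1 was highest in T cell-like cells, at 99.4 and 101 CPM, against 30.3 and 41.7 CPM in microglia-like cells. Tap2 and Tapbp had the narrowest range from the lowest to the highest type in both libraries. Tap2 was 116 and 108 CPM in T cell-like cells and still 44.6 and 60.6 CPM in ependymal-like cells, and Tapbp was 108 and 123 CPM in microglia-like against 119 and 117 CPM in endothelial-like cells. Nlrc5 had the largest share of its UMIs in T cell-like cells among the 10 genes, 46.4% of those of all Fit2-WT cells and 40.8% of those of all Fit2-Mut cells. Its level there was 155 and 141 CPM, against 11.4 and 20.1 CPM in microglia-like cells. No Nlrc5 UMI was counted in smooth muscle-like cells (258938 and 201221 UMIs) or neuron-like cells. In Fit2-WT these 2 types held too few UMIs to place them below microglia-like cells.

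For H2-K1, B2m, Tap1 and Psmb8, the gene whose level followed theirs most closely across the 15 types and both libraries was another member. Over 30 points of log2(CPM + 10), and among 10466 genes that reached 50 CPM in some type, Psmb8 was most like Psmb9 (Pearson's r 0.983), then Tap1 (0.975), H2-K1 (0.972), B2m (0.971) and Sp110 (0.97). H2-K1 was most like Psmb8, Psmb9 (0.970), Tap1 (0.959), Shisa5 (0.957) and Sp110 (0.948). The 5 genes closest to Tap1 were Psmb8, Psmb9 (0.971), H2-K1, H2-T23 (0.953) and Sp110 (0.946), and those closest to B2m were Psmb8, Tgfb1 (0.964), Psmb9 (0.953), H2-D1 (0.953) and H2-T23 (0.951). Less like the 4 genes were Tapbp, with r between 0.887 with B2m and 0.896 with H2-K1, and Tap2, between 0.805 and 0.912 with the same genes. Nlrc5 was also less like them, with r between 0.743 with B2m and 0.829 with H2-K1. These points share 2 libraries and the same division into immune and other cells, so the values only rank genes.

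Free RNA sets a limit to how the low levels can be read. In barcodes with 10 to 100 UMIs, which hold mostly free RNA, H2-K1 was 196 CPM in Fit2-WT and 223 CPM in Fit2-Mut, H2-D1 236 and 315 CPM, and B2m 291 and 396 CPM. These levels were above those of the same genes in astrocyte-like, oligodendrocyte-like and choroid plexus epithelium-like cells, and the ratio of Fit2-Mut to Fit2-WT in the free RNA was itself 1.13 for H2-K1, 1.33 for H2-D1 and 1.36 for B2m. The gene of the free RNA that was least represented in a type set an upper limit to the free RNA in it, 2.75% of the UMIs in astrocyte-like cells of Fit2-WT and less in the other 13 combinations of type and library. After subtraction of that share, the summed ratio was 1.40 in astrocyte-like, 1.54 in oligodendrocyte-like and 1.16 in choroid plexus epithelium-like cells, each inside the interval of the unsubtracted ratio given below.

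In microglia-like cells (550 and 577 cells), the macrophages of the brain tissue, all 10 genes had a higher level in the Fit2-Mut library. Over all 11992 genes with at least 20 UMIs there, 62.9% had a ratio above 1, and 3 of the 10 members were at least 25% higher where 18.4% of all genes were. The median log2 ratio of the 10 was 0.24 (0.15 and 0.38 for the medians of the lower and upper interval bounds), beside 0.07 over all genes. The 10 genes summed to a ratio of 1.17 (1.15 to 1.19), and the median cell gave 0.474% of its UMIs to them in Fit2-WT and 0.559% in Fit2-Mut.

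The difference was uneven among the members. H2-K1 was counted 3692 and 5984 times, a ratio of CPM of 1.29 (1.23 to 1.34). H2-D1 (ratio 1.15, 1.12 to 1.19) and B2m (1.17, 1.14 to 1.19) stood below H2-K1, with intervals that did not meet that of H2-K1. H2-T23 had a ratio of 1.04 (0.963 to 1.12), an interval that includes 1. Of the peptide-supply genes, Tap1 had 175 and 303 UMIs (ratio 1.37, 1.14 to 1.66), Psmb9 a ratio of 1.23 (1.09 to 1.38), Tap2 1.201 (1.04 to 1.39), Tapbp 1.13 (1.02 to 1.26) and Psmb8 1.08 (1.02 to 1.15). Nlrc5, the least counted member with 66 and 146 UMIs, had the highest ratio of the 10, 1.76 (1.30 to 2.38), and its 5 richest cells held 21.2% and 15.8% of those UMIs. Scaling by TMM lowered all microglial log2 ratios by 0.07, which brought the summed ratio to 1.11. The log2 ratio of H2-T23, 0.05, was smaller than that shift and below the all-gene median of 0.07, so H2-T23 was not higher under TMM. Markers of border-associated macrophages were at 23.2 CPM in Fit2-WT and 39.3 CPM in Fit2-Mut microglia-like cells, with 6 of 6 counted in each, those of T cells at 1 and 8 UMIs, and those of endothelium at 85.5 and 85.4 CPM. The part of the first list in these ratios was not tested.

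At equal depth, with each cell thinned to 1000 UMIs, H2-K1 was seen in 37.5% of Fit2-WT (33.4% to 41.6%) and 49.6% of Fit2-Mut microglia-like cells (45.4% to 53.7%). Unthinned, the shares were 89.1% and 92.7%. In choroid plexus epithelium-like cells, a type of low class I level and similar depth (medians of 10055.5 and 9861.5 UMIs against 9690 and 11268), 3.75% and 3.55% of the thinned cells had an H2-K1 UMI. B2m was seen in 87.8% and 90.6% of the thinned cells, H2-D1 in 66.7% and 70.7%, Psmb8 in 24.4% and 27.4%, and Tap1 in 2.18% and 5.03%. Only the H2-K1 intervals lay apart among the 3 chains. The 5 cells richest in a gene held 3.8% to 6.2% of its UMIs for H2-K1, H2-D1, B2m, H2-T23 and Psmb8 in each library, so these ratios did not rest on a few cells.

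Microglia-like cells fell into clusters of different state. The largest was led by Spp1, Lpl and Cst7, genes of plaque-associated microglia (304 and 339 cells), another by Tyrobp (140 and 118 cells) and one more by the homeostatic genes Tmem119 and P2ry12 (102 and 101 cells). The 10 genes summed to 5601 CPM in Fit2-WT and 6421 CPM in Fit2-Mut in the Spp1-led cluster, to 4773 and 5853 CPM in the Tyrobp-led cluster and to 4327 and 4804 CPM in the Tmem119-led cluster. Each of these 3 clusters thus had a summed ratio above 1, at 1.15 (1.13 to 1.17), 1.23 (1.17 to 1.28) and 1.11 (1.06 to 1.16). Within the homeostatic cluster the members parted. B2m (1.19, 1.11 to 1.28) and H2-D1 (1.12, 1.02 to 1.23) were above 1, H2-K1 was 1.08 (0.951 to 1.23), and Psmb9 was below 1 at 0.719 (0.524 to 0.984), with 91 and 78 UMIs. In the Spp1-led cluster Psmb9 was 1.27 (1.10 to 1.46), an interval apart from that in the homeostatic cluster, and H2-K1 was 1.26 (1.199 to 1.32). A further cluster of cycling cells held 4 and 19 cells. Without the cycling and Tyrobp-led clusters the summed ratio was 1.14, and 1 of the 10 genes was at least 25% higher. The share over all genes under that setting is not given.

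**Figure D2:**
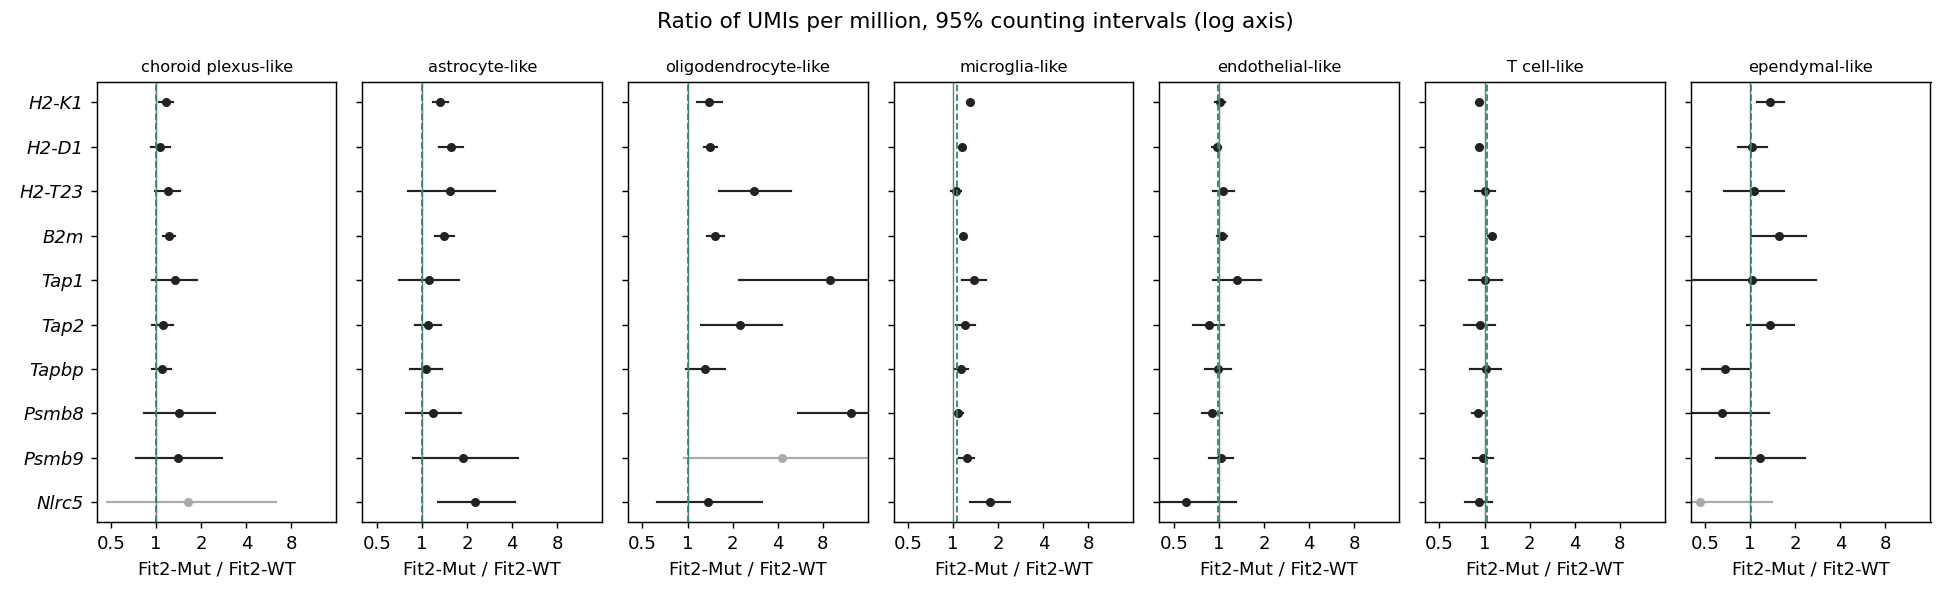
Ratio of the CPM of each gene, Fit2-Mut over Fit2-WT, in the 7 types with at least 100 cells in each library (log axis, exact 95% counting intervals, cut at the axis edges). Grey points have under 20 UMIs in both libraries together, the solid line is a ratio of 1 and the dashed line the median of all genes. All 10 points of microglia-like cells lie above 1, with H2-T23 below the dashed line, and the points of oligodendrocyte-like cells reach 12.4.

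Oligodendrocyte-like cells (736 and 929 cells) had the highest summed ratio of the 7 types, at a low level. All 9 members with at least 20 UMIs were at least 25% higher in Fit2-Mut, beside 52.3% of 12194 genes with a ratio above 1 and 10.8% that were at least 25% higher. Their median log2 ratio was 0.62 (0.35 and 1.64 for the medians of the bounds), beside 0.01 over all genes, and the sum of the 10 had a ratio of 1.54 (1.44 to 1.65). The heavy and light chains had moderate ratios, 1.40 (1.16 to 1.69) for H2-K1, 1.41 (1.28 to 1.57) for H2-D1 and 1.53 (1.35 to 1.75) for B2m. Tapbp, with 72 and 132 UMIs, was at 1.31 (0.973 to 1.77) and Nlrc5, with 11 and 21, at 1.36 (0.627 to 3.12), intervals that include 1. Psmb8, Tap1, Tap2 and H2-T23 had few UMIs and high ratios. Psmb8 was counted 6 times in the Fit2-WT and 104 times in the Fit2-Mut library (ratio 12.4, 5.49 to 34.4), Tap1 had 2 and 25 (8.91, 2.22 to 77.6), Tap2 15 and 47 (2.23, 1.23 to 4.30) and H2-T23 18 and 70 (2.77, 1.63 to 4.94). Psmb9, with 2 and 12 UMIs, stayed under the limit of 20.

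These UMIs sat in very few cells. In Fit2-Mut, 5 cells held 86.5% of the Psmb8 UMIs, 84% of the Tap1 UMIs and 77.1% of the H2-T23 UMIs of the 929 oligodendrocyte-like cells, against 15.5% of the H2-D1 and 22.9% of the B2m UMIs. At least 3 Psmb8 UMIs were found in 6 of 929 Fit2-Mut cells (0.646%, 0.237% to 1.40%, Clopper-Pearson) and in 0 of 736 Fit2-WT cells, for which a limit of 3 counts allows a share of up to 0.408%. At least 10 were found in 4 Fit2-Mut cells. The richest Fit2-Mut cell carried 306 UMIs of the 10 genes among 14020, which is 2.18% of its UMIs and above the median of microglia-like cells. It had 35 UMIs of H2-K1, 87 of H2-D1, 82 of B2m, 39 of H2-T23, 38 of Psmb8 and 8 of Tap1. The next 4 carried 74, 57, 56 and 55 UMIs, whereas the 5 richest Fit2-WT cells carried 45, 42, 30, 30 and 29, nearly all of them H2-D1 and B2m.

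The class I-rich Fit2-Mut cells carried oligodendrocyte markers and almost none of the 6 other types counted in them. Markers of choroid plexus, astrocytes and further types were not counted in these cells. The 5 richest had 151 to 332 UMIs of the 6 oligodendrocyte markers and 0 or 1 UMI of the 38 markers of microglia, border-associated macrophages, T, NK and B cells and endothelium. The richest also had 42 UMIs of C4b, 9 of Serpina3n and 11 of Ifit3, the first pair being genes of disease-associated oligodendrocytes and the last an interferon response gene. Irf1 had 10 UMIs in the third cell, where Serpina3n had none. In the second cell Serpina3n had 11 UMIs and Ifit3 none, so the cells did not all carry the same companions. These cells were picked by their class I UMIs after the values had been seen and stand for themselves.

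**Figure D3:**
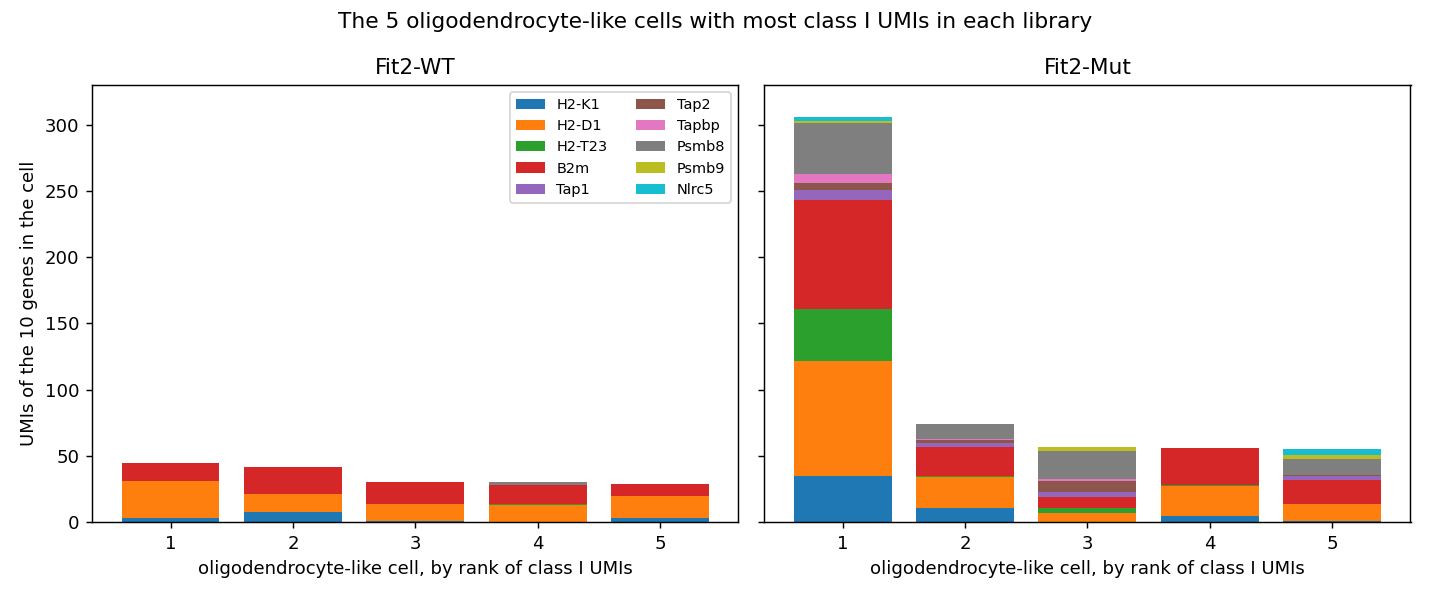
UMIs of the 10 genes in the 5 oligodendrocyte-like cells with most class I UMIs of each library, stacked by gene on a linear axis. The richest Fit2-Mut cell holds 306 UMIs, with H2-T23 and Psmb8 among them, and the richest Fit2-WT cell holds 45.

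The 2 oligodendrocyte-like clusters differed. In the cluster led by Opalin (447 and 564 cells) the 10 genes summed to 191 CPM in Fit2-WT and 388 CPM in Fit2-Mut, a ratio of 2.03 (1.86 to 2.22). In the cluster led by Klk6 (289 and 365 cells) they summed to 145 and 138 CPM, a ratio of 0.947 (0.848 to 1.06). All 5 class I-rich Fit2-Mut cells were in the Opalin-led cluster, but the difference there did not end with them. Without the 5 richest cells of each library its summed ratio was 1.81 (1.64 to 2.01), with 1.84 (1.59 to 2.13) for H2-D1, 2.12 (1.73 to 2.62) for B2m and 1.59 (1.24 to 2.06) for H2-K1, and Psmb8 had 0 and 13 UMIs. The same omission brought the Klk6-led cluster to 1.10 (0.969 to 1.248), so its direction rested on single cells. In thinned cells, 13.4% of Opalin-led Fit2-WT cells (10.4% to 16.9%) and 18.6% of the Fit2-Mut cells (15.5% to 22.1%) had a class I UMI, against 9.69% and 9.59% in the Klk6-led cluster. Over all oligodendrocyte-like cells, leaving out the 10 richest of each library gave a summed ratio of 1.42 and turned H2-T23 to 0.927 (16 and 21 UMIs, 0.461 to 1.90). It lowered the Psmb8 ratio from 12.4 to 7.77, which then rested on 2 and 22 UMIs (1.91 to 68.2).

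Markers of other cells in the Opalin-led cluster were at 47.5 and 48.3 CPM for the microglial list, with 7 of 7 and 6 of 7 markers counted, and at 4.87 and 4.69 CPM for the endothelial list, with 5 of 7 in each library. The T cell list was at 1.43 CPM in Fit2-WT and 5.70 CPM in Fit2-Mut (5 and 28 UMIs), and the choroid plexus list at 2660 and 3800 CPM, so these lists were higher in Fit2-Mut and their part in the result was not tested. In the Klk6-led cluster the endothelial list was lower in Fit2-Mut, at 33.1 and 4.28 CPM (127 and 23 UMIs). The microglial list was at 46.9 and 54.7 CPM there, the choroid plexus list at 2576 and 5797 CPM, and the T cell list at 1 and 2 UMIs. Their part in the Klk6-led ratio was not tested. Without all oligodendrocyte-like cells that had at least 2 microglial or at least 2 endothelial marker UMIs, the summed ratio over both clusters was 1.64 and the Psmb8 ratio 12.1. Cells with T cell or choroid plexus markers were not left out by this rule, so it does not address those lists.

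In astrocyte-like cells (1202 and 1459 cells) all 10 members had a ratio above 1, beside 51.2% of 13589 genes, and 6 were at least 25% higher, beside 10.8%. The median log2 ratio was 0.45 (-0.17 and 0.84 for the medians of the bounds), beside 0.01 over all genes, and the summed ratio 1.33 (1.24 to 1.43). Of the chains, H2-D1 had 165 and 355 UMIs (ratio 1.56, 1.29 to 1.89), B2m 285 and 557 (1.42, 1.23 to 1.64) and H2-K1 442 and 809 (1.33, 1.18 to 1.49). Nlrc5, with 17 and 53 UMIs, had a ratio of 2.26 (1.29 to 4.16), above those of the chains. Psmb9, with 10 and 26 UMIs, was at 1.88 (0.879 to 4.38). Tap1, Tap2, Tapbp and Psmb8 lay between 1.06 and 1.19, all with intervals that include 1. By cluster, the summed ratio was 1.31 (1.17 to 1.46) in the Agt-led cluster (263 and 443 cells, 289.8 and 379 CPM) and 1.21 (1.08 to 1.36) in the Crym-led cluster (247 and 280 cells, 290.1 and 351 CPM). It was 1.27 (0.979 to 1.67) in the Kcnd2-led cluster (338 and 416 cells, 78 and 99.4 CPM) and 1.03 (0.792 to 1.34) in that led by St6galnac5 (283 and 232 cells, 103 and 106 CPM). The small clusters led by Hsd11b1 (43 and 58 cells) and Gria4 (28 and 30 cells) were at 1.78 (1.23 to 2.64) and 1.17 (0.844 to 1.64). The cells were thus spread unequally over clusters of different level in the 2 libraries, and the part of this in the pooled 1.33 was not tested. Microglial markers were at 85.5 CPM in Fit2-WT and 101 CPM in Fit2-Mut, with 7 of 7 counted in each, endothelial markers at 27.9 and 37.4 CPM and T cell markers at 8.38 and 12.1 CPM. Without cells that had at least 2 UMIs of the microglial or of the endothelial list the summed ratio was 1.26 and the median log2 ratio 0.39.

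Choroid plexus epithelium-like cells (1440 and 1494 cells), the largest type, showed small differences at low levels. All 9 members with at least 20 UMIs had a ratio above 1, beside 48% of 12728 genes, and 3 were at least 25% higher, beside 9.05%. The median log2 ratio was 0.25 (-0.09 and 0.41 for the medians of the bounds), beside -0.01, and the summed ratio 1.16 (1.10 to 1.22). The interval stayed above 1 for B2m (833 and 999 UMIs, ratio 1.21, 1.10 to 1.33) and H2-K1 (649 and 743 UMIs, 1.16, 1.04 to 1.29). The other 7, among them Psmb8 with 25 and 35 UMIs, had intervals that include 1. The summed ratio was 1.13 in both clusters of the type, at 134 and 151 CPM in the Vat1l-led and 231 and 260.1 CPM in the Ttr-led cluster. Microglial markers were at 51.8 and 50.6 CPM, with 7 of 7 counted in each library.

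Endothelial-like cells (432 and 340 cells) had a high class I level and no difference beyond counting error. Of the 10 members, 5 had a ratio above 1, beside 47.1% of 9899 genes, and 1, Tap1 at 1.31 (0.911 to 1.90), was at least 25% higher, beside 14.9%. The summed ratio was 1.0015 (0.966 to 1.04). H2-K1 was at 1.02 (0.94 to 1.10), H2-D1 at 0.966 (0.906 to 1.03) and B2m at 1.05 (0.977 to 1.13), and every member's interval included 1. Microglial markers were at 56.5 and 108 CPM in these cells, with 7 of 7 counted in each library.

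In T cell-like cells (197 and 228 cells) the pooled values and the clusters gave different pictures. Of the 10 members 4 had a ratio above 1, beside 54.4% of 9126 genes, and none was at least 25% higher, beside 29.3%. The summed ratio was 0.974 (0.948 to 1.001), with H2-K1 at 0.919 (0.870 to 0.970), H2-D1 at 0.922 (0.877 to 0.970) and Psmb8 at 0.910 (0.829 to 0.998), and B2m at 1.12 (1.06 to 1.18). The type consisted of a Trbc2-led cluster with 185 cells in each library and an Ms4a4b-led cluster with 12 and 43 cells, which also met the microglial rule. Cells of the Ms4a4b-led cluster had a median of 16161 UMIs, against 4164.5 in the Trbc2-led cluster, so they weighed more in the pooled values than their number. They held 1270 of 8851 class I UMIs in Fit2-WT and 5368 of 13183 in Fit2-Mut. The summed level was higher in the Trbc2-led cluster, 8778 and 9107 CPM, than in the mixed cluster, 6964 and 7241 CPM, and the summed ratio was 1.04 within each (1.01 to 1.07 and 0.978 to 1.11). In the Trbc2-led cluster alone H2-K1 was 1.09 (1.02 to 1.15), H2-D1 1.001 (0.944 to 1.06) and Psmb8 1.02 (0.922 to 1.14), so the pooled directions of all 3 turned. Microglial markers in the pooled type were at 3455 CPM in Fit2-WT and 8275 CPM in Fit2-Mut, with 7 of 7 counted in each library.

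Ependymal-like cells (108 and 136 cells) gave the least precise values. Of 9 members with at least 20 UMIs 7 had a ratio above 1, beside 51.8% of 10591 genes, and 3 were at least 25% higher, beside 19%: H2-K1 at 1.36 (1.11 to 1.67), B2m at 1.55 (1.02 to 2.37) and Tap2 at 1.36 (0.95 to 1.96). Tapbp, with 68 and 60 UMIs, was at 0.682 (0.474 to 0.979) and Psmb8, with 19 and 16, at 0.651 (0.313 to 1.34). The summed ratio was 1.13 (1.01 to 1.26) and was 0.958 in cells thinned to 1000 UMIs. Microglial markers were at 57.9 and 70.9 CPM, with Tmem119 at 0 in both libraries, and no T cell marker was counted.

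**Figure D4:**
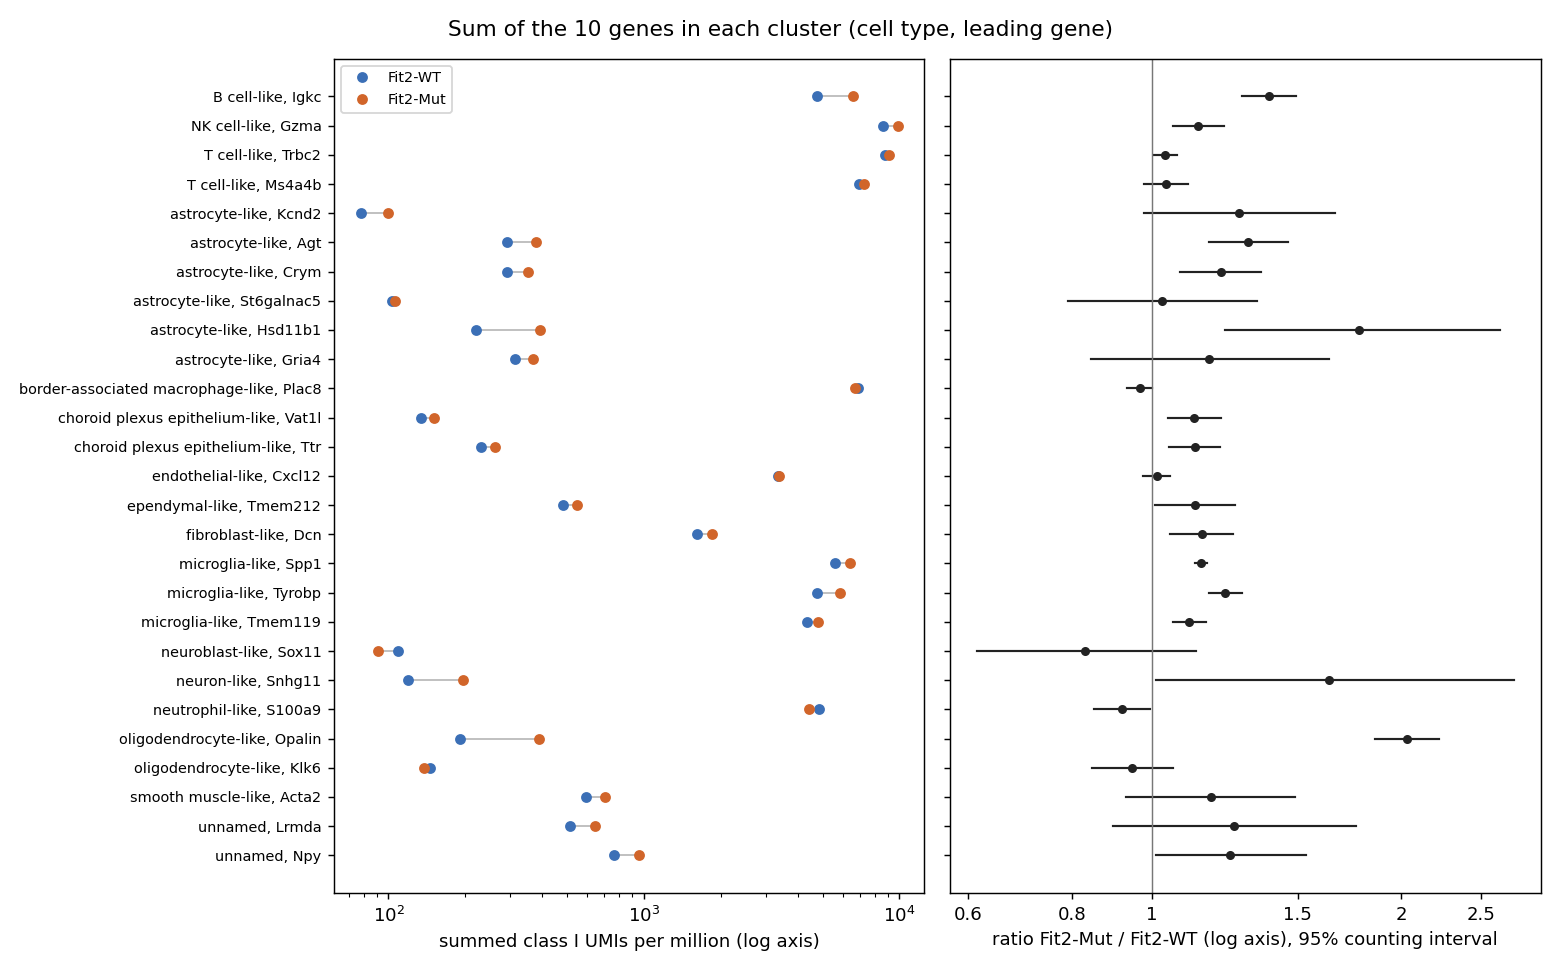
Summed level of the 10 genes in each cluster with at least 50 cells in both libraries together (left, CPM, log axis, Fit2-WT blue and Fit2-Mut orange) and its ratio with an exact 95% counting interval (right, log axis). Clusters are labelled by type and leading gene. The Opalin-led oligodendrocyte-like cluster is at 2.03, the Klk6-led at 0.947, and both T cell-like clusters are at 1.04.

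Types with fewer than 100 cells in a library were too small for the comparison of all members. Single members named in the border-associated macrophage-like and B cell-like clusters are descriptions. Summed values of these types are given only to place the others. The ratio was 1.14 (1.06 to 1.22) in NK cell-like cells (45 and 36 cells), 1.15 (1.05 to 1.254) in fibroblast-like cells (58 and 81 cells), 0.967 (0.934 to 1.002) in the mixed border-associated macrophage-like cluster, where H2-K1 was at 0.822 (0.755 to 0.895), Psmb9 at 0.663 (0.534 to 0.823) and B2m at 1.21 (1.14 to 1.296), and 0.920 (0.850 to 0.995) in neutrophil-like cells (70 and 61 cells). It was 1.38 (1.28 to 1.49) in B cell-like cells (38 and 62 cells), a cluster that also met the microglial rule and in which B2m was 1076 and 2239 CPM. Neuron-like cells (24 and 37 cells) were at 1.64 (1.01 to 2.74), neuroblast-like cells (74 and 156 cells) at 0.831 (0.615 to 1.13) and smooth muscle-like cells (50 and 47 cells) at 1.18 (0.931 to 1.49).

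A wider list of 48 class I pathway genes held other heavy chains, the loading complex, constitutive and regulatory proteasome subunits, and the interferon and NLRC5 partner factors. In microglia-like cells 42 had at least 20 UMIs. Of these 29 had a ratio above 1 (69.0%, beside 62.9% of all genes), 9 were at least 25% higher (21.4%, beside 18.4%) and none was lower by the same factor, so both counts were near those of all genes. Among the other heavy chains, H2-Q4 had 181 and 375 UMIs (ratio 1.64, 1.37 to 1.97), H2-Q6 114 and 224 (1.56, 1.24 to 1.97), H2-Q7 165 and 320 (1.54, 1.27 to 1.87) and H2-M3 460 and 751 (1.30, 1.15 to 1.46). The tapasin-like editor Tapbpl was at 1.32 (1.05 to 1.67) and the NF-Y subunit Nfyc at 1.27 (1.02 to 1.58). Stat2 (0.985 to 1.60) and the RFX subunit Rfxank (0.9995 to 2.16) had intervals that include 1. The median log2 ratio of the 42 was 0.09, close to the 0.07 of all genes.

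Oligodendrocyte-like cells had 34 measured genes of that list, 23 of them above 1 (67.6%, beside 52.3% of all genes), 9 at least 25% higher (26.5%, beside 10.8%) and 1 lower by the same factor. Irf1, an interferon-induced activator of class I genes, had 11 and 49 UMIs (ratio 3.17, 1.63 to 6.77), Stat2 107 and 204 (1.36, 1.07 to 1.73) and the heavy chain H2-T22 50 and 101 (1.44, 1.02 to 2.06). Of the 49 Irf1 UMIs, 10 were in a single class I-rich cell, and the Irf1 ratio without such cells is not given. Creb1 was at 1.27 (1.11 to 1.47), and the interferon gamma receptor chain Ifngr2, with 84 UMIs in each library, at 0.713 (0.520 to 0.976). Astrocyte-like cells had 38 measured, 30 above 1 (78.9%, beside 51.2%), 5 at least 25% higher (13.2%, beside 10.8%) and 3 lower by that factor, with the class I-like gene Mr1 at 1.35 (1.04 to 1.76) and Rfx5 at 0.660 (0.458 to 0.947). In choroid plexus epithelium-like cells, with 39 measured, 23 were above 1 (59.0%, beside 48%), 4 at least 25% higher (10.3%, beside 9.05%) and 1 lower by that factor. There Tapbpl was at 1.75 (1.28 to 2.40) and the peptide-trimming enzyme Erap1 at 1.40 (1.11 to 1.77). Endothelial-like cells had 41 measured, with 20 above 1 (48.8%, beside 47.1%), 5 at least 25% higher (12.2%, beside 14.9%) and 2 lower by that factor. The heavy chain H2-T24, with 56 and 19 UMIs, was at 0.412 (0.231 to 0.703), and the interferon-induced Ube2l6 at 1.45 (1.06 to 1.98).

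In T cell-like cells 42 of the list were measured, with 23 above 1 (54.8%, beside 54.4% of all genes), 12 at least 25% higher (28.6%, beside 29.3%) and 5 lower by that factor, so the counts were those of the background. The chaperones Hspa5 (1.51, 1.32 to 1.73), Canx (1.37, 1.10 to 1.70) and Calr (1.31, 1.13 to 1.52) were above 1. So were the interferon receptor chains Ifngr2 (2.07, 1.49 to 2.94), Ifnar2 (1.37, 1.14 to 1.66) and Ifngr1 (1.29, 1.14 to 1.46), the protease Sppl2a (1.39, 1.03 to 1.90) and H2-M3 (1.40, 1.05 to 1.87). The kinase Jak1 (0.773, 0.684 to 0.875) and Psmb5 (0.762, 0.612 to 0.948) were below. The unequal share of the mixed cluster moved with these values, and its part in them was not tested. Among 9 class I receptors read apart, the CD8 chain Cd8b1 in T cell-like cells had 666 and 752 UMIs (ratio 0.738, 0.664 to 0.821). The myeloid receptor Lilrb4a had 22 and 108 UMIs there (3.21, 2.02 to 5.34). Ependymal-like cells had 36 of the list measured, 20 above 1 (55.6%, beside 51.8%), 7 at least 25% higher (19.4%, beside 19%) and 7 lower by that factor, near the background, with the constitutive proteasome subunit Psmb5 at 0.760 (0.644 to 0.896) and Sppl2a at 1.45 (1.03 to 2.08).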

How the data were processed

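Single-cell RNA was measured in 2 libraries, 1 per genotype. The deposited values are UMI counts of each gene in each barcode, as whole numbers that were not normalized, per the file headers. Reads were processed with Cell Ranger, version 7.0.0 and build mm10 per the submitters' processing notes and version 7.1.0 per the file headers. How intronic reads and reads shared by related genes were treated, and the annotation release, are not given in the sources used here. The libraries held 52491901 (Fit2-WT) and 63234140 (Fit2-Mut) UMIs.

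Barcodes with at least 1000 UMIs, 500 genes and at most 10% mitochondrial UMIs were kept, and 124 and 155 doublets called by Scrublet (scanpy 1.11.5) were removed. Leiden clusters (leidenalg 0.10.2, resolution 1, 2000 variable genes without the 10 genes and the wider list, 30 components, 15 neighbours) were named from 20 marker lists, where at least 3 markers were 2-fold higher than in all other cells and present in 10% of the cluster's cells. Counts were summed per type and library and divided by the total (CPM). Ratios, for genes with at least 20 UMIs together, have exact conditional 95% intervals, levels exact Poisson and shares exact Clopper-Pearson intervals, and a count of 0 was read as a limit of 3 counts. The intervals cover counting error only. The code was tested on simulated data. The members and lists were chosen with earlier results of these data known.

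Named are all 10 members in types with at least 100 cells per library, genes of the wider list with at least 50 UMIs together and a level at least 25% higher or lower by the same factor, of which those with an interval that excludes 1 are printed, with Stat2 and Rfxank in microglia-like cells, and for H2-K1, B2m, Tap1 and Psmb8 the 5 most similar genes. Alternatives covered scaling (TMM in edgeR 4.0.16, median of ratios), thinning to 1000 UMIs, equal weight per cell, other limits on cells, other naming of types, doublets kept, the class I genes kept in clustering, free RNA subtracted and the 10 richest cells left out. Results of 1 gene of the wider list are not reported here. A further 7 alternatives were chosen after seeing the data.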

Additional observations from a re-analysis of the deposited data

Results flagged for a closer look

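Among the 7 types with at least 100 cells in each library, the ratio of Fit2-Mut to Fit2-WT differed in direction for 4 of the 10 genes. It was below 1 in a type and above 1 in another, with counting intervals on opposite sides of 1. The share of all genes that meet the same rule is not given, so the 4 are a description and not a trait of the list. With 1 library per genotype these differences between types were not tested. H2-K1 was at 0.919 in T cell-like and 1.29 in microglia-like cells. H2-D1 was at 0.922 in T cell-like and 1.56 in astrocyte-like cells. Psmb8 was at 0.910 in T cell-like and 12.4 in oligodendrocyte-like cells. Tapbp was at 0.682 in ependymal-like and 1.13 in microglia-like cells. In the T cell-like cluster led by Trbc2 alone the first 3 were at 1.09, 1.001 and 1.02, and 5 Fit2-Mut cells hold 86.5% of the 104 oligodendrocyte-like Psmb8 UMIs. In the smaller, mixed border-associated macrophage-like cluster Psmb9 was at 0.663 (0.534 to 0.823), against 1.23 (1.09 to 1.38) in microglia-like cells. H2-K1 (0.822), H2-D1 (0.913) and Psmb8 (0.823) were also below 1 there with intervals that exclude 1, whereas B2m was above at 1.21. The intervals of H2-T23, Tap1, Tap2, Tapbp and Nlrc5 included 1 there. That cluster had only 92 cells in Fit2-Mut, and no share over all genes is given for it, so these values are descriptions.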

How the results depend on the processing

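No paired analysis was possible because each genotype has 1 library, and no replicate could be left out. Of 780 ratios of single genes under an alternative, 730 stayed within their counting interval, 38 moved and 12 changed direction. Of 364 values of the list, 328 stayed, 35 moved and 1 changed direction. A change of direction was counted here only where the main interval excluded no difference. Where it included that, 61 more ratios of single genes, 9 summed ratios and 10 median log2 ratios lay on the other side under an alternative. The causes were not tested unless stated. Counts of genes under an alternative are given below without the number measured and without the share over all genes. They are therefore not to be set against the main counts.

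In T cell-like cells the summed ratio was 1.03 with doublets kept, 1.001 thinned, 1.02 with cells weighted equally and 1.04 without the mixed cluster. Members above 1 there were 7 with doublets kept, equal weights or without the mixed cluster, 2 under other naming by marker share with either limit on cells, and 1 under TMM or median of ratios. H2-K1 turned to 1.06, 1.04, 1.05 and 1.09 under the same 4 settings as the summed ratio, Psmb8 to 1.02 with doublets kept, 1.01 with equal weights and 1.02 without the mixed cluster, H2-D1 to 1.001 without it, and B2m to 0.990 thinned.

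In microglia-like cells the summed ratio was 1.11 under TMM, 1.12 under median of ratios, 1.145 with equal weights and 1.14 without the cycling and Tyrobp-led clusters, where 1 gene was at least 25% higher. Thinning gave a median log2 ratio of 0.12 and turned Tap2 to 0.861. Astrocyte-like cells had a summed ratio of 1.204 with at least 500 UMIs, 1.21 under marker-share naming and 1.44 thinned. At least 25% higher were 3 genes with 500 UMIs, and genes above 1 were 6 under marker-share naming and 5 thinned. Choroid plexus epithelium-like cells had 1.09, with 1 gene at least 25% higher, under marker-share naming, and 4 genes above 1, with H2-K1 at 0.931, thinned. Oligodendrocyte-like cells had 3 genes above 1 and 3 at least 25% higher thinned. Without the 10 richest cells their summed ratio was 1.42, with 5 genes at least 25% higher and H2-T23 at 0.927. That omission left 3 endothelial-like genes above 1, and thinning left 0 at least 25% higher. Thinned T cell-like cells had 3 genes at least 25% higher. Thinned ependymal-like cells had a summed ratio of 0.958, with 1 gene above 1 and 1 at least 25% higher. Thinning leaves fewer genes with 20 UMIs, so a low thinned count does not mean that the other members were below 1. Without the richest cell of each library the Opalin-led ratio was 1.79, and without 5 it was 1.81 and the Klk6-led ratio 1.10.

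Depth limits Tap1, Psmb9 and Nlrc5 in oligodendrocyte-like cells, where 5 cells of a library carry most of their UMIs, and the number of animals behind each library is not given in the sources used here.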
